A study of Mus musculus with 8 samples.

Results

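The chaperone genes described here encode the cytosolic and mitochondrial protein-folding machinery of the cell, taken by name. A gene entered when its platform symbol began with Dnaja, Dnajb, Dnajc, Hspa, Hspb, Hspd, Hspe, Hsph, Hsp90a or Cct followed by a digit, with Hspa5 and Dnajb9 left out. The rule used no measured value and found 76 genes on 189 probe sets, among 18193 genes with a probe set of 1 symbol. Of the 76, 70 were bright enough to be tested, among 14004 genes in all. Hspa1l, Hspa12b, Hspb9, Dnajb7, Dnajc5g and Cct8l1 did not pass that filter, a signal above 37.1 on at least 2 arrays. Hsp90ab1 was paired with 0 probe sets in the annotation used and is not analysed here, and 3 probe sets that name Dnajc19 beside a pseudogene were left out. The rule goes by symbol, so it also took J-domain proteins of the endoplasmic reticulum (Dnajb11, Dnajc1 and Dnajc3) and Hspb11, which is a subunit of the intraflagellar transport machinery.

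Microarrays were run on RNA of mouse embryonic stem (ES) cells and of induced pluripotent stem (iPS) cells, body cells that reprogramming factors have made pluripotent. The groups were 1 normal ES line and 3 integration-free iPS lines, named line 1, line 2 and line 3, with 2 arrays each. All 8 arrays carried male C57BL/6 cells at passage 7 to 10, kept in N2B27 medium with mouse LIF, with no other agent or allele named. Each group is a single cell line, so a difference between groups is a difference between lines. The sample titles name both arrays of a line as biological replicates, but no label states if each array had its own culture. The p-values then measure only how far these arrays spread, and that spread may be technical.

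The values are microarray signals. The trimmed mean signal was the same to 4 digits on all 8 arrays, and the median signal ran from 54.1 to 64.3, with line 2 highest. All 8 pluripotency markers passed the filter on a summed signal of 68052 to 77939 per array. Utf1 was lowest on the line 2 arrays, at 702 and 542 against 880 to 1202 on the other 6. Pou5f1 was also lowest there, at 10646 and 9680 against 10681 to 12035. Tdgf1 was highest there, at 21814 and 22504 against 19383 to 21584. Of 10 measured fibroblast or feeder-cell markers, 6 passed the filter and 3 were at or under 37.1 on every array. Their summed signal was 337 to 339 in ES cells, 356 to 389 in line 1, 494 to 540 in line 2 and 342 to 357 in line 3. The excess of line 2 lay in Pdgfrb, at 247 and 177 there against 24.5 to 58.2 elsewhere, while Col1a1, Postn and Dcn were at or under 37.1 on all arrays. The ratio of the 3' to the 5' actin control probe sets, a measure of RNA integrity, was 1.74 and 1.79 in line 2 and 1.49 to 1.62 on the other 6 arrays. The part of these differences in the results for line 2 was not tested.

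Chaperones bind unfolded proteins and keep them from aggregating while they fold. Hsp70 proteins bind short stretches of a client in a cycle of ATP use. J-domain proteins bring clients to them and start ATP hydrolysis, and Hsp110 proteins exchange the nucleotide. Hsp90 acts later on signalling proteins, the CCT ring folds actin and tubulin, and Hsp60 with its lid Hsp10 folds proteins inside mitochondria. Pluripotent stem cells are known for high chaperone levels, and many of these genes are induced by heat shock factors that bind repeats of the unit GAA and its complement.

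Chaperone genes were called against ES cells at shares near those of all genes, and in both line 2 held most of the calls. Against ES cells, the average of the 3 iPS lines, with equal weights, differed in 6 of the 70 members by limma with Benjamini-Hochberg adjustment (adjusted p under 0.05), 2 higher and 4 lower. Of all genes tested, 7.3% were called in that comparison, 4.27% higher and 3.03% lower. Line 1 differed from ES cells in 1 member, which was lower (2.34% of all genes were called, 1.21% higher and 1.12% lower). Line 3 differed in 2 members, both lower (4.16% of all genes, 1.59% higher and 2.57% lower). Line 2 differed from ES cells in 19 members, 6 higher and 13 lower, where 26.7% of all genes were called. The members' share in line 2, 27.1%, was near that background, and their median log2 difference was 0.00 where that of all genes was 0.07. The split by direction was 13 of 19 lower among members, while 10.6% of all genes were lower and 16.1% higher. The 4 comparisons with ES cells share the same 2 ES arrays.

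**Figure D1:**
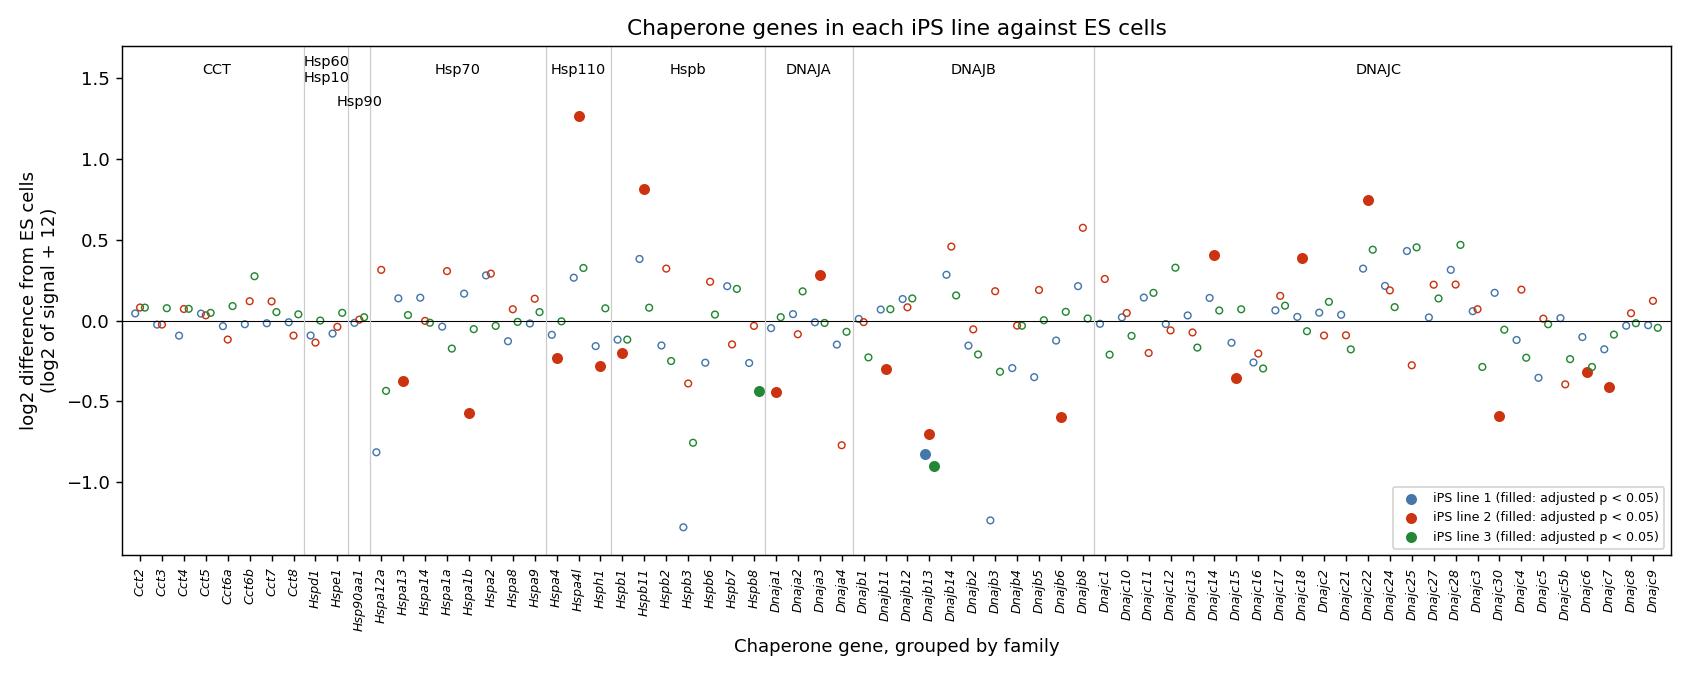
Log2 difference from ES cells (vertical axis, log2 of signal plus 12) of the 70 chaperone genes (horizontal axis, by family) in iPS line 1, line 2 and line 3, with filled points for an adjusted p under 0.05. The 19 filled points of line 2 are spread over the Hsp70, Hsp110, small Hsp and J-domain families, none is in the CCT ring, and Dnajb13 is filled in all 3 lines.

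The scaling of the arrays moved the balance of directions. Under quantile normalization, line 2 against ES cells gave 3 higher and 15 lower members, and with arrays centred on their median it gave 3 higher and 13 lower. For the mean of the lines the same settings gave 1 higher and 4 lower, and 2 higher and 2 lower. Of all genes, these settings called 25.9% and 24.2% in line 2 against ES cells, and 7.05% and 5.74% for the mean of the lines. Centring shifted the median of all genes by -0.09 for line 2 against ES cells, by -0.12 against line 1 and by -0.14 against line 3. The higher calls of Dnaja3, Dnajc14 and Dnajc18 in line 2 were lost under both settings.

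On the probe sets used and the deposited scale, the CCT ring, Hsp60 and Hsp10, Hspa8, Hspa9 and Hsp90aa1 gave no call against ES cells. For the 7 CCT ring genes of the rule, Hspd1 (Hsp60), Hspe1 (Hsp10), Hspa9 (the mitochondrial Hsp70), Hspa8 (the constitutive Hsp70) and Hsp90aa1 (the inducible Hsp90), no iPS line was called against ES cells as the arrays were deposited. Over these 12 genes the iPS arrays lay between 88.1% and 113% of the ES mean, and the ES arrays themselves between 92.5% and 107%. All 12 were read on probe sets with a mean signal above 10000. On its brightest probe set with a mean under 10000, Cct3 was lower in line 2 than in ES cells (-0.22, limma adjusted p = 0.0481). Hsp90aa1 read 32023 and 33543 in ES cells, 32820 and 32097 in line 1, 32359 and 33466 in line 2, and 33276 and 33235 in line 3. The pairs of lines 1 and 3 do not overlap each other, while each overlaps those of ES cells and line 2. The difference of the mean of the lines from ES cells was 0.00 ± 0.04 (SE, 95% interval -0.08 to 0.09).

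Within the CCT ring, which closes around its client, Cct2 differed from ES cells by 0.04 ± 0.05 in line 1, 0.08 ± 0.05 in line 2 and 0.08 ± 0.05 in line 3. Cct5 differed by 0.04, 0.03 and 0.05, each ± 0.05. Tcp1, the ring's first subunit and not a member by its symbol, differed by 0.02, 0.02 and 0.09, each ± 0.06. None of these passed the test, and the 95% intervals of Cct5 reached at most 0.15 in any line. On its brightest probe set with a mean under 10000, Cct3 was lower in line 2 than in line 1 (-0.28, limma adjusted p = 0.0166) and in line 3 (-0.27, adjusted p = 0.0162). On the probe sets used, the ring gave 2 calls between iPS lines. Cct6a was 22684 and 22830 in line 2 against 25516 and 27055 in line 3, a log2 difference of -0.21 ± 0.05 (limma adjusted p = 0.00832), which was not called without the second line 3 array (-0.17, adjusted p = 0.0943). Cct4 was 0.17 ± 0.05 higher in line 2 than in line 1 (adjusted p = 0.0331), and this call was lost under 12 of 20 alternatives and turned to -0.17 on another probe set. Leaving out single arrays gave Cct4 adjusted p-values of 0.0508 to 0.189 without line 1 array 1, either line 2 array or either line 3 array. 

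Hspd1 and Hspe1 make the mitochondrial folding chamber and share a promoter. Hspd1 read 22264 and 23384 in ES cells, 21586 and 21228 in line 1, 21121 and 20407 in line 2, and 23238 and 22418 in line 3. Line 2 was lowest, by -0.14 ± 0.05 (adjusted p = 0.0697). Under quantile normalization this difference was -0.19 (adjusted p = 0.00375), and Cct6a was then also called, at -0.19 (adjusted p = 0.0173). Hspe1 differed from ES cells by -0.08, -0.04 and 0.05, each ± 0.05, in lines 1, 2 and 3. On its brightest probe set with a mean under 10000, Hspe1 was lower in line 2 than in line 3 (-0.30, adjusted p = 0.046). Hspa9 was 14235 and 14124 in ES cells and 16086 and 15083 in line 2, a difference of 0.14 ± 0.06 (adjusted p = 0.12).

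**Figure D2:**
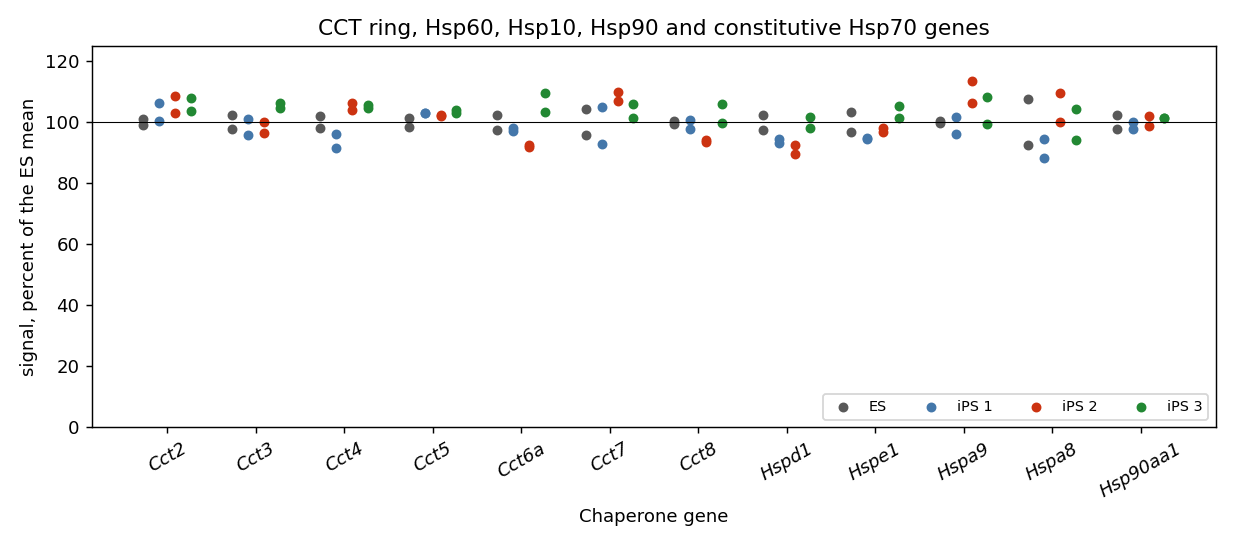
Signal on each array as percent of the ES mean (vertical axis, from 0) for 12 abundant chaperone genes (horizontal axis), with 2 points for each line. The iPS arrays lie between 88.1% and 113%, and the ES arrays between 92.5% and 107%.

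The Hsp70 family held 8 tested members, of which 2 (25%) were lower in line 2 than in ES cells and 0 higher. This was near the 26.7% of all genes called there. Hspa1b encodes the main heat-inducible Hsp70. Its signal was 1718 and 1388 in ES cells, 1463 and 2057 in line 1, 923 and 1159 in line 2, and 1359 and 1630 in line 3. Both line 2 arrays lie below the other 6. Line 2 was 1.49-fold lower than ES cells (log2 -0.57 ± 0.16, limma adjusted p = 0.0182), 1.67-fold lower than line 1 (-0.74 ± 0.16, adjusted p = 0.00522) and 1.43-fold lower than line 3 (-0.52 ± 0.16, adjusted p = 0.0257). Against ES cells the call was lost without ES array 1 (-0.42, adjusted p = 0.164) and without line 2 array 1 (-0.41, adjusted p = 0.154). Against line 1 it was lost without line 1 array 2 (-0.49, adjusted p = 0.0641) or line 2 array 1 (-0.58, adjusted p = 0.0559), and against line 3 without line 3 array 2 (-0.39, adjusted p = 0.179) or line 2 array 1 (-0.36, adjusted p = 0.2). The other 2 Hspa1b probe sets fell in line 2 as well, by 0.37 and 0.57 on the log2 scale.

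Hspa1a, the near-identical neighbour of Hspa1b, read 174 and 242 in ES cells and 231 and 285 in line 2, a difference of 0.31 ± 0.20 that did not pass (adjusted p = 0.3). Genes this alike can share probes, and probe sequences were not compared here, so the split of signal between both copies is uncertain. Their 300-base start windows, which are mostly upstream of the transcript, differ at 4 positions, an identity of 98.7%. Hspa13, a microsome-associated Hsp70 relative, was 893 and 955 in ES cells, 1024 and 1010 in line 1, 708 and 709 in line 2, and 910 and 983 in line 3. It fell in line 2 by 0.38 ± 0.09 against ES cells (adjusted p = 0.0065), a call lost without ES array 2 (-0.33, adjusted p = 0.0645) and in the mean of its probe sets (-0.31, adjusted p = 0.197). Hspa2 and Hspa14, which acts at the ribosome, were not called on the probe sets used, with line 2 differences of 0.29 ± 0.21 and 0.00 ± 0.07. With its probe sets averaged, Hspa14 was higher in line 1 than in ES cells (0.60, limma adjusted p = 0.0494). It was then lower in line 2 than in line 1 (-0.52, adjusted p = 0.0182).

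Hspa8 carried the highest signal of the set, 36299 to 45211 over the 8 arrays. Line 2 differed from ES cells by 0.07 ± 0.08. Its probe sets disagreed between lines 2 and 3: the brightest gave no call, the mean of all its probe sets gave -0.22 (adjusted p = 0.00699), and without probe sets that may bind related transcripts it was -0.69 (adjusted p = 0.00547). No direction is given for Hspa8.

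All 3 Hsp110 genes were called in line 2 against ES cells, 2 lower and 1 higher, where 26.7% of all genes were called. Hsph1, itself heat-inducible, read 5710 and 5724 in ES cells, 4878 and 5381 in line 1, 4745 and 4647 in line 2, and 6102 and 5953 in line 3. Line 2 lies below every other array, and line 3 above. The difference of line 2 was -0.28 ± 0.06 from ES cells (adjusted p = 0.00471) and -0.36 ± 0.06 from line 3 (adjusted p = 0.000789). Hspa4 was 17876 and 18699 in ES cells and 15811 and 15381 in line 2, lower by 0.23 ± 0.05 (adjusted p = 0.00544, and 0.0552 at -0.20 without ES array 2).

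Hspa4l, the third Hsp110 gene, was dim. Its signal was 72.5 and 38.8 in ES cells, 64.6 and 69.0 in line 1, 160 and 133 in line 2, and 54.8 and 89.1 in line 3. Both line 2 arrays lie above the other 6. Line 2 was 2.41-fold above ES cells on the log2 of signal plus 12, which understates changes of dim genes (1.27 ± 0.33, limma adjusted p = 0.0118). The call was lost without ES array 2 (0.90, adjusted p = 0.0975), without line 2 array 1 (1.14, adjusted p = 0.0894) and in the mean of its probe sets (0.95, adjusted p = 0.0802).

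J-domain proteins made up 41 of the 70 members. Of these, 12 (29.3%) were called in line 2 against ES cells, 4 higher and 8 lower, near the 26.7% of all genes. Dnaja1, the general cytosolic partner of Hspa8, gave 15676 and 15283 in ES cells, 14231 and 15781 in line 1, 10975 and 11789 in line 2, and 15624 and 15793 in line 3. Line 2 stands below with no overlap. It was 1.36-fold lower than ES cells (log2 -0.44 ± 0.06, adjusted p = 0.000196), 1.32-fold lower than line 1 (adjusted p = 0.000613) and 1.38-fold lower than line 3 (adjusted p = 0.000106). Dnajb6, which keeps polyglutamine proteins soluble, read 13733 and 13745 in ES cells, 12438 and 12787 in line 1, 9003 and 9151 in line 2, and 14392 and 14142 in line 3. Line 2 was again lowest, 1.51-fold under ES cells (-0.60 ± 0.05, adjusted p = 4.23e-06).

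Dnajc7 has repeats that bind both Hsp70 and Hsp90. It read 6001 and 6085 in ES cells, 5495 and 5193 in line 1, 4428 and 4648 in line 2, and 5888 and 5500 in line 3, so line 2 was lowest. The difference from ES cells was -0.41 ± 0.06 (limma adjusted p = 0.000367). Dnajb1, the heat-inducible partner of Hsp70, read 2001 and 2026 in ES cells, 1943 and 2058 in line 2, and 1679 and 1757 in line 3. Here line 3 was lowest, and it was line 2 against line 3 that passed (0.22 ± 0.07, adjusted p = 0.0316). That call was lost without line 2 array 2 (0.18, adjusted p = 0.154), line 3 array 1 (0.19, adjusted p = 0.167) or line 3 array 2 (0.25, adjusted p = 0.0641), and with arrays centred on their median.

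Among the mitochondrial J-domain proteins, Dnajc30 read 640 and 657 in ES cells, 761 and 704 in line 1, 423 and 429 in line 2, and 613 and 633 in line 3. Line 2 was below all other arrays, by 0.59 ± 0.10 on the log2 scale from ES cells (adjusted p = 0.000758). Dnajc15, of the inner membrane import site, also fell, from 2535 and 2418 to 2003 and 1866 (-0.35 ± 0.10, adjusted p = 0.0151). Its call was lost without ES array 1 (-0.32, adjusted p = 0.101) or line 2 array 2 (-0.30, adjusted p = 0.0922). Dnaja3, the matrix partner of Hspa9, rose from 1016 and 1068 in ES cells to 1286 and 1253 in line 2 (0.28 ± 0.10, adjusted p = 0.0493). It was not called without either ES array, either line 2 array or either line 3 array (0.25 to 0.32, adjusted p between 0.0631 and 0.214). It was also lost under both other scalings (0.25, adjusted p = 0.0912, and 0.19, adjusted p = 0.234).

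The reticulum member Dnajb11 read 1378 and 1533 in ES cells and 1301 and 1071 in line 2. It fell by 0.30 ± 0.10 (adjusted p = 0.0398), a call lost without ES array 1 (-0.37, adjusted p = 0.0546), ES array 2 (-0.22, adjusted p = 0.247), line 2 array 2 (-0.16, adjusted p = 0.304) or either line 1 array (adjusted p = 0.0523). Dnajc1 and Dnajc3, which sit in the same compartment, were higher in line 2 than in line 3, by 0.47 ± 0.14 (adjusted p = 0.0223) and 0.36 ± 0.12 (adjusted p = 0.0401). Both were lost without line 2 array 2 (0.41, adjusted p = 0.122, for Dnajc1, and 0.19, adjusted p = 0.325, for Dnajc3) and under both other scalings. Dnajc1 was also lost without line 3 array 1 (0.40, adjusted p = 0.125), and Dnajc3 without any single ES or line 3 array (0.28 to 0.44, adjusted p between 0.0522 and 0.221).

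The higher J-domain members of line 2 were Dnajc22, Dnajc14 and Dnajc18 beside Dnaja3. Dnajc22 gave 162 and 154 in ES cells, 186 and 216 in line 1, 282 and 265 in line 2, and 219 and 218 in line 3. On the probe set used, all 6 iPS arrays exceeded both ES arrays, and line 2 was highest, at 0.75 ± 0.16 (limma adjusted p = 0.00359). With its probe sets averaged, line 2 was also higher than line 1 (0.64, adjusted p = 0.0107) and line 3 (0.58, adjusted p = 0.0118). Dnajc14 rose by 0.41 ± 0.13 (adjusted p = 0.0327) and Dnajc18 by 0.38 ± 0.11 (adjusted p = 0.0252). Both calls were lost without either ES array or either line 2 array, at adjusted p-values of 0.0553 to 0.195 for Dnajc14 (0.33 to 0.49) and 0.0581 to 0.122 for Dnajc18 (0.34 to 0.43). Dnajc6, which uncoats clathrin vesicles and was named only to complete the calls after its value was seen, fell by 0.32 ± 0.09 (adjusted p = 0.0219).

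The small heat shock proteins hold unfolded proteins without using ATP. In line 2 against ES cells 2 of 7 were called (28.6%), near the 26.7% of all genes. Hspb1 read 17936 and 18343 in ES cells, 17801 and 15691 in line 1, 16655 and 14957 in line 2, and 17034 and 16407 in line 3. The groups of iPS arrays overlap one another and all lie under the ES arrays. Only line 2 passed, by -0.20 ± 0.07 (adjusted p = 0.0486), while lines 1 and 3 stood at -0.12 ± 0.07 each. The call was lost without either ES array (-0.22 and -0.18), line 2 array 2 (-0.12) or either line 3 array (-0.20), with adjusted p between 0.0632 and 0.312. Hspb11, the intraflagellar transport subunit, gave 982 and 994 in ES cells, 1246 and 1337 in line 1, 1636 and 1867 in line 2, and 1112 and 983 in line 3. Line 2 was 1.76-fold above ES cells (0.82 ± 0.09, adjusted p = 4.63e-05) and also above line 1 (0.43 ± 0.09, adjusted p = 0.00501, and 0.0504 at 0.34 without line 2 array 2).

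**Figure D3:**
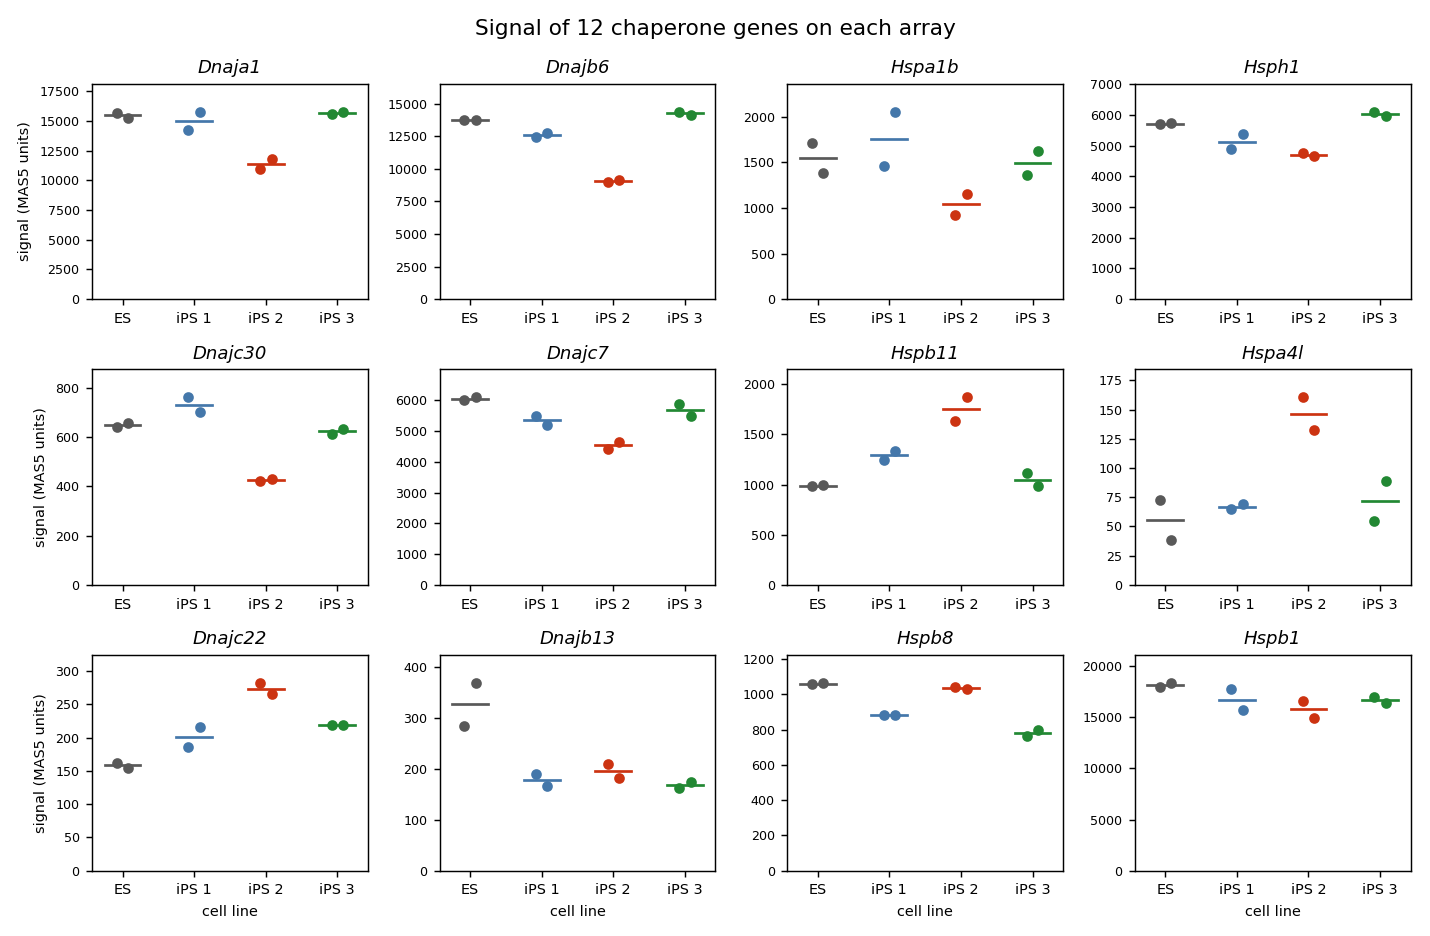
Signal on each array (vertical axes, MAS5 units from 0, a scale for each gene) of 12 chaperone genes in ES cells and iPS lines 1, 2 and 3, with a bar at the mean of 2 arrays. Both line 2 arrays lie below the other 6 in Dnaja1, Dnajb6, Hspa1b, Hsph1, Dnajc30 and Dnajc7 and above them in Hspb11, Hspa4l and Dnajc22. All 6 iPS arrays lie under both ES arrays in Dnajb13, Dnajc7, Hspb8 and Hspb1.

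Dnajb13 was the only member called lower in every iPS line against ES cells. It encodes a J-domain protein of the radial spokes of cilia and sperm tails. The signal was 284 and 367 in ES cells, 188 and 166 in line 1, 209 and 181 in line 2, and 162 and 174 in line 3. All 6 iPS arrays lie under both ES arrays, which is also so for Dnajc6, Dnajc7, Hspb1 and Hspb8. In Dnajb13 the ES arrays differ from each other by more than any pair of iPS arrays. The mean of the lines was 1.75-fold lower (-0.81 ± 0.14, limma adjusted p = 0.00432), with -0.83 ± 0.18 in line 1 (adjusted p = 0.0279), -0.70 ± 0.18 in line 2 (adjusted p = 0.0105) and -0.90 ± 0.18 in line 3 (adjusted p = 0.0127). The iPS lines did not differ from each other in Dnajb13 by this test, with 95% intervals of -0.25 to 0.51 for line 2 against line 1, -0.18 to 0.58 for line 2 against line 3 and -0.45 to 0.31 for line 3 against line 1.

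These Dnajb13 calls rest on the brighter ES array. Without ES array 2 the mean of the lines was at -0.63 (adjusted p = 0.105), line 1 at -0.65 (0.238), line 2 at -0.52 (0.114) and line 3 at -0.72 (0.138). Line 1 was also not called without ES array 1 (-1.01, adjusted p = 0.0555) or either of its own arrays (-0.91 and -0.74, adjusted p = 0.0943 and 0.167). Line 2 was not called without its second array (-0.60, adjusted p = 0.0729), nor line 3 without either of its own (-0.85 and -0.94, adjusted p = 0.0793 and 0.0632).

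Hspb8, which works with Bag3 to send clients to autophagy, read 1058 and 1064 in ES cells, 883 and 882 in line 1, 1044 and 1030 in line 2, and 764 and 796 in line 3. Lines 1 and 3 lie below ES cells and line 2, and line 2 stands just under the ES arrays. Line 3 fell by 0.44 ± 0.08 (limma adjusted p = 0.0103), and line 1, at -0.26 ± 0.08, did not pass (adjusted p = 0.146). Line 3 was not called without either ES array (-0.44 and -0.43, adjusted p = 0.0897 and 0.0816) or either of its own (-0.41 and -0.47, adjusted p = 0.0746 and 0.0526), nor in the mean of the gene's probe sets. The mean of the lines was -0.24 ± 0.07 (adjusted p = 0.0458), a call lost on leaving out any one array (adjusted p between 0.0595 and 0.245).

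The other members called for the mean of the lines were Dnajb6 (-0.22 ± 0.04, adjusted p = 0.00557), Dnajc7 (-0.23 ± 0.05, adjusted p = 0.0172), Hspb11 (0.43 ± 0.08, adjusted p = 0.00446) and Dnajc22 (0.50 ± 0.13, adjusted p = 0.0328). Without line 2 these stood at -0.03, -0.13, 0.23 and 0.38, with adjusted p-values of 0.744, 0.233, 0.144 and 0.214. With a gene's probe sets averaged, Dnajb6 stood at -0.13 (limma adjusted p = 0.173) and Dnajc22 at 0.34 (adjusted p = 0.129). On its brightest probe set with a mean under 10000, Dnajb6 stood at -0.17 (adjusted p = 0.095). Dnajc7 and Hspb11 had 1 probe set past the filter each. None of these 4 was called without ES array 1 or without ES array 2 (adjusted p between 0.0546 and 0.198), and Dnajc22 was also lost without line 1 array 2, either line 2 array or either line 3 array (0.47 to 0.52, adjusted p between 0.0501 and 0.0644). Without line 2, 2 members remained called, Dnajb13 (-0.86, adjusted p = 0.00902) and Hspb8 (-0.35, adjusted p = 0.0209), where 3.51% of all genes were called. Leaving out ES array 2 gave 0 called members, with 9 at an unadjusted p under 0.05, and leaving out ES array 1 gave 2. With the line means as samples 0 were called and 1 had an unadjusted p under 0.05, where 0% of all genes were called. The share of all genes called also fell when either ES array was left out.

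Between iPS lines, line 2 differed from line 1 in 12 members, 5 higher and 7 lower, where 23.3% of all genes were called, 13.8% higher and 9.54% lower. It differed from line 3 in 22 members, 8 higher and 14 lower (31.1% of all genes, 19% higher and 12.1% lower). Lines 3 and 1 differed in 0 members by limma with Benjamini-Hochberg adjustment, with 14 at an unadjusted p under 0.05 (1.41% of all genes were called, 0.35% higher and 1.06% lower). Against line 1, the split was 1 higher and 9 lower under quantile normalization and 0 higher and 16 lower after centring. Against line 3 it was 4 higher and 16 lower, and 1 higher and 19 lower. Of all genes, these settings called 22.3% and 22.2% against line 1, and 28.6% each against line 3. With any 1 array left out, fewer members were called in line 2 against ES cells and against line 1. The share of all genes called fell in these fits too. Against line 3 the count of members also fell without line 2 array 2 or line 3 array 1. The calls of Dnaja1, Dnajb6, Dnajc7, Dnajc30, Dnajc22 and Hspb11 in line 2 against ES cells were kept under all 20 alternatives.

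Several members are read by more than 1 probe set, which gives a second view of the same RNA on the same arrays. Of the 13 genes lower in line 2 against ES cells, 8 had other probe sets above the filter, 17 in all. Of these 17, 14 were lower as well, 10 of them past the test, and 9 showed a larger difference than the probe set used. Dnaja1 is an example: its brightest probe set, with a mean signal of 14394, gave -0.44, and those at 4458 and 2693 gave -0.86 and -0.997. For Hspa4, the probe set at 17329 gave -0.23, and those at 3676 and 2053 gave -0.61 and -0.66, while the dimmest, at 175, gave 0.20 ± 0.18 (adjusted p = 0.48). Of all probe sets with 1 symbol, 1.75% had a mean signal above 10000, whereas 18 of the 70 members did. Of these 18, 4 were called in line 2 against ES cells, and of the 52 dimmer members 15, where 26.7% of all genes were called. The part of signal saturation in this pattern was not tested.

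The 3 probe sets of the opposite sign belong to Hspa4, Dnajc6 (0.32 ± 0.56 at a mean signal of 31.5) and Dnajb6. That of Dnajb6, with a mean signal of 319, passed the test and was higher in line 2 by 0.68 ± 0.14 (limma adjusted p = 0.00467 over all probe sets) where its other 3 were lower by 0.38 to 0.85. Hsph1 gave -0.28 and -0.43 on its pair of probe sets. Of the 6 genes higher in line 2, 5 had other probe sets, 10 in all, of which 9 were higher too and 1 passed the test.

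**Figure D4:**
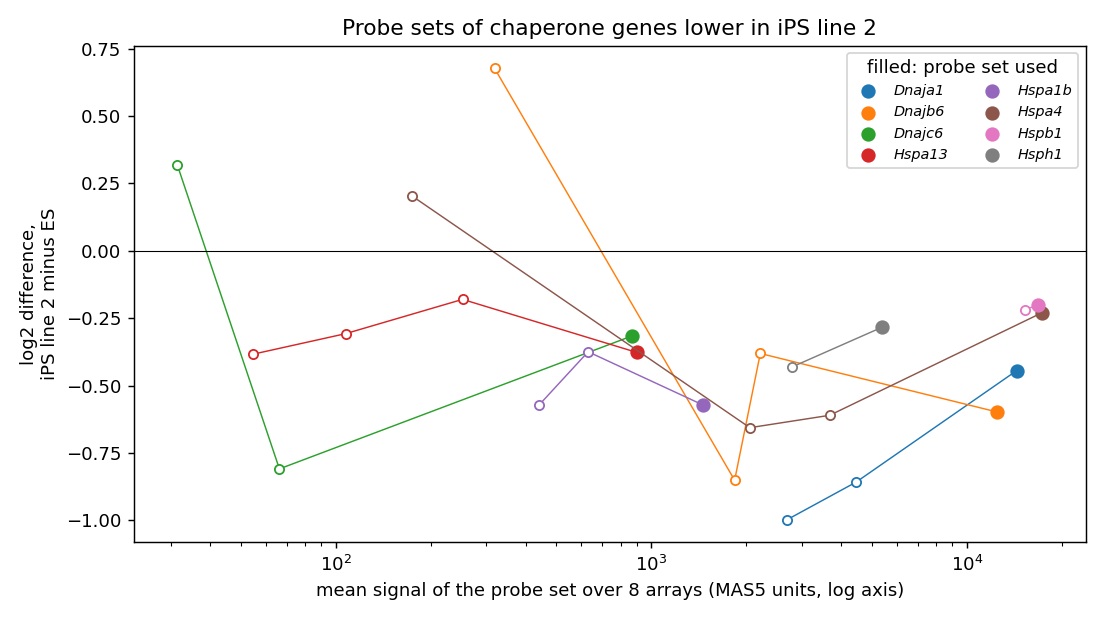
Log2 difference of line 2 from ES cells (vertical axis) against the mean signal over 8 arrays (horizontal axis, log scale) for every tested probe set of the 8 genes that were lower in line 2 and have several, with lines joining probe sets of 1 gene and filled points for the probe set used. Most points lie below 0, and the dimmer probe sets of Dnaja1 and Hspa4 between signals of 2053 and 4458 lie lower than the bright ones, while 3 dim probe sets, of Dnajb6, Hspa4 and Dnajc6, lie above 0.

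The windows around the start sites were searched for the repeats that heat shock factors bind. RefSeq on GRCm38.p6 gave at least 1 window of 300 bases, 250 before and 50 after a start, for 62 of the 76 members. A gene with several windows was counted by the one with most matches. The 3-unit forms GAANNTTCNNGAA and TTCNNGAANNTTC and the 2-unit form GAANNTTC were searched. The first 2 are each other's reverse complement, the last is its own, so both strands were read, and every 3-unit match holds a 2-unit one. The other order of 2 units, TTCNNGAA, was not searched, so the 2-unit counts cover GAANNTTC alone. A 3-unit match lay in 4 members, Dnajb6, Hspd1, Hspe1 and Hsph1, which is 6.45% of the 62 against 0.662% of all 27025 genes with a window. The matches of Hspd1 and Hspe1 are the same bases, read from opposite strands, so these genes are not separate cases. A 2-unit match lay in 16 members (25.8%) against 9.04% of all genes. Hspa1a and Hspa1b, with windows 98.7% identical, are both among these 16.

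Read against the arrays, 11 of the genes lower in line 2 had a window, while Dnajc30 and Hspa13 had none. Of these 11, 2 held a 3-unit match (Dnajb6 and Hsph1) and 5 a 2-unit match. Of 41 members with a window that were not called there, 2 held a 3-unit match (Hspd1 and Hspe1) and 9 a 2-unit match. The 4 higher genes with a window held neither. A match is a description of these letters and not a binding site. The sequences below, 5′ to 3′ on the strand of the gene, show the 3-unit matches of a pair not called against ES cells on the deposited scale and of a pair that was lower in line 2, and the 2-unit match of Hspa1b, with the matched letters in capitals. In the first, 2 overlapping 3-unit matches lie between the opposed starts of Hspd1 and Hspe1, 215 bases apart. In Dnajb6 the match begins 46 bases before the start, in Hsph1 it begins 15 bases after the start, and in Hspa1b 104 bases before. The stretches are chr1:55087933-55088147 on the plus strand (Hspe1 and Hspd1), chr5:29735778-29735897 on the plus strand (Dnajb6), chr5:149636280-149636308 on the minus strand (Hsph1) and chr17:34959239-34959388 on the minus strand (Hspa1b), all GRCm38.p6.
Hspe1 and Hspd1: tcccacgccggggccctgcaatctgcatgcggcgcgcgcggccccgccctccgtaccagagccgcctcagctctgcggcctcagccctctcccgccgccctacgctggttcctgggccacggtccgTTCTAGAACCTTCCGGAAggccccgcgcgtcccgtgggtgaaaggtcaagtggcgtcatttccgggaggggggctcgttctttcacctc
Dnajb6: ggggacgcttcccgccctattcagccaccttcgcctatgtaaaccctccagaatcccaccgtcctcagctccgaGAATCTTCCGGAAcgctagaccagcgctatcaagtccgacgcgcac
Hsph1: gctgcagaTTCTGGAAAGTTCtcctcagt
Hspa1b: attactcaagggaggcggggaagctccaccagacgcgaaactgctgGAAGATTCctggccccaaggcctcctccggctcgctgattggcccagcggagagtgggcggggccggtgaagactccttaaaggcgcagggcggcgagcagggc

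The working partners of these chaperones were taken from a list of 53 genes, of which 50 were tested. The heat shock factor Hsf1 and the Hsp90 co-chaperones Ppid and Ptges3 were not among them. A gene was left out if it had no probe set of 1 symbol or none that passed the filter, and which applied is not given here. In line 2 against ES cells 14 of the 50 were called (28%), 7 higher and 7 lower, near the 26.7% of all genes. Line 1 had 0 (4 at an unadjusted p under 0.05 by limma), where 2.34% of all genes were called. Line 3 had 1, where 4.16% of all genes were called. It was Tomm70a, a mitochondrial import receptor that binds Hsp70 and Hsp90, and it was higher there, by 0.33. Hsf2 and Hsbp1, a factor of the heat shock response and a binder of its trimers, were not called in line 2, at 0.04 ± 0.11 and 0.13 ± 0.07.

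By role, 6 of 11 mitochondrial partners were called in line 2 against ES cells, 4 higher and 2 lower, where 26.7% of all genes were called. The protease Lonp1 rose by 0.56 ± 0.08 (limma adjusted p = 0.000246), the disaggregase Clpb by 0.38 ± 0.09 (adjusted p = 0.00963), and the import motor subunits Timm44 and Pam16 by 0.45 ± 0.08 and 0.23 ± 0.06. The protease subunit Clpp fell by 0.43 ± 0.06 (adjusted p = 0.00023) and Grpel1, the nucleotide exchanger of Hspa9, by 0.20 ± 0.07 (adjusted p = 0.0443). Of 10 CCT partners 3 were called. Txndc9, an inhibitor of the ring, fell by 0.48 ± 0.06 (adjusted p = 0.000164), and the prefoldin subunits Pfdn6 and Vbp1 stood at -0.20 ± 0.07 and 0.18 ± 0.05. Of 15 Hsp90 co-chaperones 4 were called, with Cdc37l1 (-0.52 ± 0.09), Tomm70a (-0.30 ± 0.09) and Ttc4 (-0.29 ± 0.09) lower and Tomm34 (0.41 ± 0.07) higher. Of 11 Hsp70 co-chaperones 1 was called, Sil1, the nucleotide exchanger of the reticulum, higher by 0.81 ± 0.17 (adjusted p = 0.00359).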

How the data were processed

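RNA of 8 samples was hybridised to Affymetrix 3' arrays. Each deposited value is the intensity of a probe set on a linear scale, which the authors computed with MAS5 (from the submitters' processing notes). Its version, detection calls and target scale are not given here. The table held 45101 probe sets, 64 of them controls, and the platform annotation gave 34945 of them 1 symbol, 932 several and 9160 none. Signals were used as deposited, as log2(signal + 12). A probe set had to exceed 37.1, the 40th percentile of all signals, on 2 arrays, and the brightest then stood for its gene, giving 14004 genes. The floor replaces calls of presence.

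In R 4.3.3, limma 3.58.1 (lmFit, eBayes with an intensity trend) fitted 1 model over all 8 arrays with 4 residual degrees of freedom (12.4 after moderation). The 7 comparisons were each line and the equally weighted mean of the lines against ES cells, and each pair of lines. Tests were two-sided, with Benjamini-Hochberg adjustment over all 14004 genes within a comparison, and called means an adjusted p under 0.05. Errors are limma standard errors (SE). The number of arrays limits the precision. The members, the partner and marker lists and the tests were chosen with earlier results of these data known. Named were the CCT, Hsp60, Hsp10, Hsp90, main Hsp70, Hsp110 and inducible members, and for each comparison up to 6 called members per direction, by size of change. With 1 array of a line left out, its other array was assumed to vary like the other groups. The alternatives were other scalings, pseudocounts of 1 and 50, other filters, other rules for probe sets, a replicate block, no variance trend, only the arrays compared, single arrays left out, line 2 left out, and line means; the brightest probe set with a mean under 10000 was added after seeing the data.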

Additional observations from a re-analysis of the deposited data

Results flagged for a closer look

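For 15 members the difference between a pair of iPS lines passed limma's test with Benjamini-Hochberg adjustment and at least 1 line of the pair was also called against ES cells. Where more than 1 pair qualified, the one with the smallest p is given, and all contain line 2. Against line 3, line 2 was lower in Dnaja1 (log2 -0.47), Dnajb6 (-0.65), Dnajb11 (-0.37), Dnajc7 (-0.33), Dnajc15 (-0.43), Hspa4 (-0.22) and Hsph1 (-0.36). It was higher than line 3 in Dnaja3 (0.30), Dnajc18 (0.45), Hspb8 (0.40) and Hspb11 (0.74). Against line 1, line 2 was lower in Dnajc30 (-0.76), Hspa13 (-0.51) and Hspa1b (-0.74) and higher in Hspa4l (1.00). The calls of Dnaja1, Dnajb6, Dnajc7, Hspb11 and Hsph1 against line 3 and of Dnajc30 against line 1 were kept under all 20 alternatives, and the other 9 were lost under 1 to 10 of 20. Against line 3, Dnajb11 was lost without line 2 array 2 (-0.23, adjusted p = 0.118) or line 3 array 2 (-0.32, adjusted p = 0.084), and Dnajc15 without line 3 array 1 (-0.26, adjusted p = 0.0566). Dnajc18 was lost without line 2 array 2 or line 3 array 1 (both 0.41, adjusted p = 0.0604 and 0.061), and Dnaja3 without any one array of lines 2 and 3 (0.28 to 0.32, adjusted p between 0.0838 and 0.129). Against line 1, Hspa4l was lost without any one array of lines 1 and 2 (0.88 to 1.13, adjusted p between 0.0972 and 0.203). With a gene's probe sets averaged, the Hspb8 difference between lines 2 and 3 fell to 0.00 (adjusted p = 0.989), Dnajc18 to 0.19 (adjusted p = 0.5) and Dnaja3 to 0.22 (adjusted p = 0.119), and Hspa13 against line 1 stood at -0.35 (adjusted p = 0.158). With arrays centred on their median, Hspb8, Dnajc18 and Dnaja3 were not called either (0.27, 0.32 and 0.16, adjusted p = 0.0535, 0.0808 and 0.309). Line 2 arrays also had the highest actin 3' to 5' ratios and the highest median signals, and the part of these in the differences was not tested.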

How the results depend on the processing

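The counts of called members are given here where they moved by over 1.5 times. The cause was not tested beyond what a setting itself removes. The share of all genes called moved too. With no variance trend it was 2.06% for the mean of the lines and 0.336%, 17.4% and 0.157% for lines 1, 2 and 3. It was then 13.3% for line 2 against line 1 and 21.9% against line 3. For the mean of the lines it was 5.01% with probe sets averaged, 3.51% without line 2 and 0% with line means. With any 1 array left out, it fell for the mean of the lines and for line 2 against ES cells. For the mean of the lines against ES cells (6), they were 3 with a gene's probe sets averaged, 2 with no variance trend, 2 without line 2 and 0 with line means, and single arrays left out gave 0 to 5. For line 1 (1), they were 0 with no filter, 2 with the filter at the 60th percentile, 2 with probe sets averaged, 0 with no variance trend and 2 with only the 4 arrays compared, and 0 to 2 with arrays left out. Line 2 (19) gave 10 with no variance trend and 9 to 18 with arrays left out. Line 3 (2) gave 1 with probe sets averaged, 0 with no variance trend and 0 to 2 with arrays left out. Line 2 against line 1 (12) gave 7 with no variance trend and 6 to 10 with arrays left out, and line 2 against line 3 (22) gave 12 and 13 to 22. Line 3 against line 1 stayed at 0 under every alternative run. A reversed sign was seen for Cct3 and Cct4 in line 2 against line 1 on the brightest probe set with a mean under 10000. Cct3 stood at -0.28 (limma adjusted p = 0.0166) and Cct4 at -0.17 (adjusted p = 0.352). It was also seen for Hspa8 in line 2 against line 3, at -0.22 with probe sets averaged and -0.69 without _x_at and _s_at probe sets.

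The labels do not state that the replicate numbers pair the samples. The deviations of arrays with the same number correlated at -0.01 to 0.03, so no shared shift was seen, which cannot show how the arrays were handled. With the number as a replicate block the counts were 5 for the mean of the lines, 1, 19 and 2 for lines 1, 2 and 3 against ES cells, 13 for line 2 against line 1, 21 for line 2 against line 3 and 0 for line 3 against line 1. Signal over background limits the 12 members with a mean signal under 100, such as Hspa4l, and the signal of Hspa8 lies close to the highest signal of each array, 43474 to 48152.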

Other observations

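Dnajb13 lies near Ucp3, an uncoupling protein gene, in the RefSeq gene order. Ucp3 read 93.8 and 104 in ES cells, 60.3 and 62.0 in line 1, 46.2 and 58.5 in line 2, and 57.2 and 65.1 in line 3. All 6 iPS arrays lie under both ES arrays, as they do for Dnajb13, but the difference of the mean of the lines (-0.66 ± 0.24) did not pass limma's test (adjusted p = 0.13). The neighbours Mrpl48 and Coa4 stood at 0.18 ± 0.07 (adjusted p = 0.145) and 0.34 ± 0.42 (adjusted p = 0.695). The genes were looked at after the value of Dnajb13 was seen.

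Of the members under the filter, Dnajc5g was listed at 37.8 and 27.7 on the line 2 arrays and at 1.0 to 6.8 on the other 6, all but 1 value at or under 37.1.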
